A study of Homo sapiens with 4 samples.

Results

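Pseudogenes accounted for 593 of the 26819 distinct peaks in a table of RNA bound by YTHDF1, and these peaks lay in 314 of the 7550 genes listed. A peak was taken as a pseudogene peak when the biotype given for its gene contained the word pseudogene, whatever its signal, and a row that repeated another exactly was dropped. The peaks came from RNA immunoprecipitation sequencing (RIP-seq) of SNU638, an established human gastric cancer cell line. All 4 libraries came from cells that overexpressed YTHDF1, went without serum for 24 h and were then treated for another 24 h with IFN-γ at 10 ng/ml. The libraries were 2 inputs (total RNA) and 2 immunoprecipitates (IP-YTHDF1), made per the study's methods with an antibody to the FLAG tag. No library of untreated cells, of cells without the overexpressed protein or of a control antibody was analysed here, so the peaks describe binding under 1 condition. Each peak was a window of 50 bp that carried 1 signal value and, for IP-YTHDF1 against input, a p-value with its q-value (the p-value adjusted for the number of tests), and no value belonged to a single library. The depth of the libraries is therefore unknown here, no spread between the replicates could be given, and the comparisons below are descriptions of the table with no test. Since the authors' signal value has no stated scale, it serves here to order peaks and to set them side by side.

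A pseudogene is a copy or relic of a gene that no longer encodes the protein of its parent. Processed pseudogenes arose when an mRNA was copied into DNA and inserted elsewhere, so they lack introns and are most often derived from highly expressed genes such as those of the ribosome. Unprocessed pseudogenes are duplicated genes that decayed and often still hold introns, and unitary pseudogenes are former genes with no intact copy left. YTHDF1 is a cytoplasmic reader of N6-methyladenosine (m6A), a mark placed on adenosine in short motifs such as GGAC. A transcribed pseudogene can carry the same motifs as its parent, and because the sequences are alike, reads of one can also match the other. How reads with several matches were assigned is not given in the sources used here, so the division of signal between a pseudogene and its parent is uncertain for every pair below.

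In all, 3 pseudogene windows lay wholly inside a promoter sequence of RefSeq (GRCh38.p14), so that the motif could be looked for in them, and GGAC was found on the RNA strand of 1 and on either strand of 2. The 2 with a match are shown, and the other, without one, is not reported by name here. They are read on the strand of the pseudogene from 5′ to 3′. Capitals mark GGAC, searched as these 4 letters.
CRYBB2P1, chr22:25448106-25448155, plus strand: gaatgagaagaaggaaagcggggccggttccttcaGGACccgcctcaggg
AC138932.1, chr16:14927252-14927301, plus strand: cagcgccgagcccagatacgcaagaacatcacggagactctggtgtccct
CRYBB2P1 is a copy of the lens crystallin gene CRYBB2 and AC138932.1 is known by a clone name alone. Their signal values were 1.95 and 1.31, and G and C made up 62% and 60% of the letters. GGAC was present on the RNA strand of the CRYBB2P1 window and on the opposite strand of the AC138932.1 window. Of the 947 windows of any gene that lay inside such a promoter sequence, 23.7% held GGAC on the RNA strand and 40.2% on either strand. In the first 50 transcribed bases of 35116 RefSeq gene starts, the shares were 18.9% and 33.5%. A match describes the letters of a window and is not a mapped m6A site.

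Pseudogene peaks had a higher median signal value than peaks of the other large classes. Their median signal value was 2.12, with the central values between 1.81 (25th percentile) and 2.55 (75th percentile) and a range from 0.74 to 5.15. Peaks in protein-coding genes had a median of 1.83, between 1.52 and 2.16, and peaks in long non-coding RNA (lncRNA) genes had a median of 2.00, between 1.75 and 2.37. A signal value of at least 2 was listed for 357 pseudogene peaks (60.2%), against 37.2% of all listed peaks, 35.8% of coding peaks and 50.6% of lncRNA peaks. The q-values differed less, since 279 pseudogene peaks (47.0%) had a q-value of at most 0.001, against 43.7% of all listed peaks. The share of peaks that lay in pseudogenes was 2.21% (Wilson 95% interval 2.04% to 2.39%), and the share of genes was 4.16% (3.73% to 4.63%). Intervals reflect counting error alone and treat adjacent windows as independent, which they are not.

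By origin, processed pseudogenes held 295 peaks in 196 genes, unprocessed pseudogenes 284 peaks in 112 genes and unitary pseudogenes 14 peaks in 6 genes. The medians lay close together, at 2.18 for processed, 2.09 for unprocessed and 2.115 for unitary pseudogenes. The spread was wider for processed copies, with central values from 1.75 to 2.715, against 1.84 to 2.43 for unprocessed copies. The strongest values of the unitary pseudogenes ran from 1.91 in TMEM198B to 4.33 in HILS1, a linker histone-like gene of sperm cells, both named after their values were seen. Whether the annotation calls a pseudogene transcribed made little difference to the medians, which were 2.18 for transcribed processed and 2.19 for other processed pseudogenes, and 2.08 for transcribed unprocessed and 2.105 for other unprocessed pseudogenes.

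**Figure D1:**
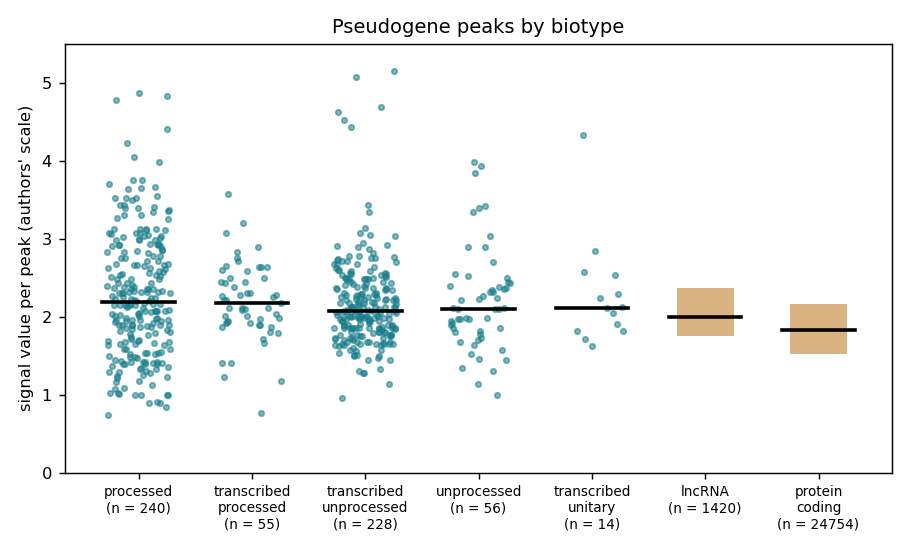
Signal value (vertical axis, the authors' scale, no unit stated) of each pseudogene peak by biotype; points are peaks, placed sideways at random within a column, black lines are medians, and the boxes for lncRNA and protein-coding peaks run from the 25th to the 75th percentile. All 5 pseudogene medians, from 2.08 to 2.19, lie above the lncRNA median of 2.00 and the coding median of 1.83.

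The pseudogene share rose with the strength of the peak. When all listed peaks were divided by signal value into 10 classes of equal size, pseudogenes held 24 peaks in the weakest class (0.895%, interval 0.602% to 1.33%) and 142 in the strongest (5.29%, interval 4.51% to 6.21%). Processed pseudogenes were spread towards both ends, with 20 of those 24 peaks and 92 of those 142, and fell to 9 peaks in the fifth class. Unprocessed pseudogenes were rare in the weakest class, with 4 peaks, and were most frequent in the ninth, with 50. Of all processed pseudogene peaks, 31.2% reached the signal value of 2.58 that bounds the strongest class, against 16.5% of unprocessed ones. The shares were 10.0% of all listed peaks, 9.32% of coding peaks and 16.3% of lncRNA peaks, so unprocessed pseudogenes were close to lncRNA genes.

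**Figure D2:**
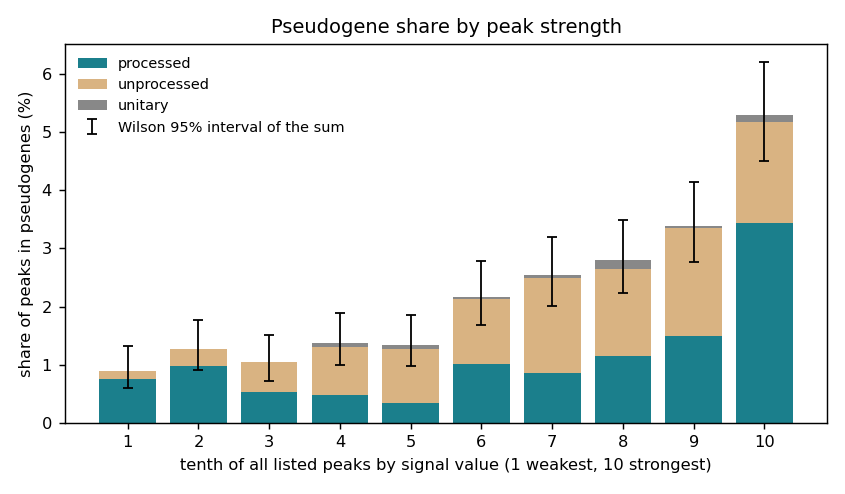
Share of peaks that lie in pseudogenes (vertical axis, percent) in each of 10 equal classes of all listed peaks by signal value (horizontal axis, 1 weakest to 10 strongest), stacked by origin, with the Wilson 95% interval of the sum. The sum goes from 0.895% in the weakest class to 5.29% in the strongest.

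Fewer windows were tested in processed pseudogenes than in other genes. The number of windows tested in a gene was estimated by taking the q-values as adjusted within each gene. For each listed window the q-value was multiplied by the order of its p-value in the gene and divided by the p-value, and the largest result was kept. This number had a median of 8 in pseudogenes (304 of 314 could be estimated), against 35 in coding and 22 in lncRNA genes. It was 6 for processed and 28 for unprocessed pseudogenes. A single peak was listed for 198 pseudogenes (63.1%), against 29.0% of coding genes and 47.8% of lncRNA genes. In the median pseudogene 16.7% of the tested windows were listed, against 8.93% in the median coding gene. Every tested window was listed in 8 processed pseudogenes, out of 20 such genes among all 7503 that could be estimated. Each gene in the table has at least 1 listed window, so these percentages cannot be low in a gene with few tested windows. The contrast therefore follows in part from the number of windows. Among genes with at most 5 tested windows, the median strongest signal value was 2.545 in 108 pseudogenes and 2.40 in 151 coding genes. With 6 to 10 windows the order turned, at 2.15 in 65 pseudogenes and 2.22 in 383 coding genes. With 11 to 20 windows the values were 2.465 in 46 pseudogenes and 2.10 in 1140 coding genes, with 21 to 40 windows 2.385 in 46 and 2.18 in 2160, and with more than 40 windows 2.47 in 39 and 2.30 in 2819. Against coding genes, the higher level of pseudogenes was thus seen in 4 of the 5 size classes. The lncRNA genes were nearer, with medians of 2.48, 2.15, 2.225, 2.285 and 2.405 from the smallest class to the largest. The lncRNA median equalled that of pseudogenes with 6 to 10 windows and was below it in the other classes.

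The strongest pseudogene peak was in DHRS4L1, an unprocessed relative of the short-chain dehydrogenase DHRS4, at chr14:24039354-24039403 with a signal of 5.15 (q-value 3.68e-10). RRP7BP, a copy of the ribosomal RNA processing gene RRP7A, held a pair of adjacent windows at chr22:42565074-42565173 with signal values of 5.08 and 4.63. RPL7AP6, a processed copy of the large-subunit ribosomal protein gene RPL7A, reached 4.87 at chr14:69885891-69885940. The first of these genes had 1 listed window, and the other two had more than 1. PFN1P1, a copy of the actin-binding protein profilin 1, had 1 peak of 4.83 at chr1:171670518-171670567. EEF1A1P6, a copy of translation elongation factor EEF1A1, had its strongest peak of 4.78 at chr7:22511517-22511566. SMG1P5, a copy of the nonsense-mediated decay kinase SMG1, had 1 peak of 4.69 at chr16:30305104-30305153. The last of the 10 strongest lay in CROCCP4 (4.52, chr1:16740531-16740580), a copy of the ciliary rootlet gene CROCC, in NPIPP1 (4.44, chr16:15109663-15109712) of the nuclear pore complex interacting family, and in RNPS1P1 (4.41, chr4:11372826-11372875), a copy of the exon junction gene RNPS1. Of these 10 windows, 6 also overlapped a window listed under another gene on the same strand, and the values under both genes are given further below.

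The weakest pseudogene peak was in EEF1A1P5, at 0.74, so copies of EEF1A1 stood at both ends of the scale. A signal value of exactly 1.00 was listed for 5 pseudogene peaks, in BCAR1P2, KRT8P24, AP000550.3 and at both windows of SNX19P3, out of 121 such peaks in the table.

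Most pseudogene peaks stood alone. When windows that touch or overlap within a gene were joined, the 593 pseudogene peaks left 461 regions, and the 26819 peaks of all genes left 18442. Of the 461, 362 were a single window, 78 had 2 windows and 21 had 3 or more. The share of single windows over all genes is not given here. The longest pseudogene region was in EEF1A1P5, where 6 adjacent windows spanned 300 bp at chr9:133019937-133020236. No gene in the table has more than 9 listed windows, so 9 is read as 9 or more. At this limit were 897 of all 7550 genes and 7 of the 314 pseudogenes. These 7 pseudogenes were EEF1A1P5, the zinc finger copy ZNF286B, LRRC37A4P of the leucine-rich repeat family LRRC37A, ARHGEF34P of a guanine nucleotide exchange factor family, SCAND2P of the SCAN domain family, the unitary CUTALP and LINC01145. Of their 63 peaks, 25 (39.7%) reached a signal value of 2, against 37.2% of all listed peaks and 60.2% of pseudogene peaks. The strongest peak was 3.05 in EEF1A1P5, 3.03 in LRRC37A4P, 2.87 in LINC01145, 2.54 in CUTALP, 2.34 in ARHGEF34P, 2.29 in ZNF286B and 2.00 in SCAND2P. In SCAND2P the values were nearly level, from 1.65 to 2.00.

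Copies of cytosolic ribosomal protein genes formed the largest group with a common function, with 47 pseudogenes and 76 peaks. Of the 47, 46 were processed, 31 were copies of large-subunit and 16 of small-subunit genes, and 29 had 1 peak. Their median signal value of 1.925 was below the 2.12 of all pseudogene peaks, and 35 of the 76 peaks (46.1%) reached a signal value of 2, against 37.2% of all listed peaks and 60.2% of pseudogene peaks. The range was wide, from 0.89 to 4.87 in RPL7AP6, and 8 of these pseudogenes had a strongest peak of 3 or more. RPL7A itself had no listed peak, while RPL7AP6 had windows of 4.87 and 3.36, RPL7AP66 had 1 of 3.50 and RPL7AP50 had 2 of 2.01 each. In all, 16 ribosomal pseudogenes were copies of 11 parents that were not listed.

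Where the ribosomal parent was listed, the pseudogene had the larger value in 21 of 31 pairs. RPL23A, a large-subunit protein gene, had windows of 1.21 and 0.74, and its 4 pseudogenes had strongest values from 2.15 to 2.45, all above the parent. RPL13A had 1 window of 0.95, and its copies RPL13AP20, RPL13AP5 and RPL13AP25 had strongest values of 1.42, 1.65 and 2.92. The small-subunit gene RPS2 had a strongest value of 2.26, with RPS2P7 at 3.75 and RPS2P5 at 3.44 above it and RPS2P55 at 1.96 and RPS2P46 at 1.89 below it. RPSA, which encodes a small-subunit protein also known as the laminin receptor, had windows of 1.27, 2.07 and 2.10, and its 6 copies had strongest values from 1.24 to 2.64, of which 4 were above the parent. RPL41, the gene of a very small ribosomal protein, was at 1.57, between RPL41P1 at 1.02 and both RPL41P2 at 2.17 and RPL41P5 at 2.40. With 2 listed copies each, RPL3 at 2.20 lay between its copies at 1.55 and 3.39, and RPL21 at 3.19 lay above both of its copies, at 1.96 and 2.25. So within a single parent family the copies lay on both sides of the parent in RPS2, RPSA, RPL41 and RPL3, above it in RPL23A and RPL13A, and below it in RPL21.

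Copies of translation factor genes numbered 20, with 41 peaks and a median signal value of 2.24. The gene with the most listed pseudogenes of any kind was EEF1A1, which delivers aminoacyl-tRNA to the ribosome. It had 10, on 7 chromosomes, with 29 peaks, while EEF1A1 itself was not listed. Of the 29 peaks, 17 (58.6%) reached a signal value of 2, close to the 60.2% of pseudogene peaks and above the 37.2% of all listed peaks. The strongest values of the 10 ran from 1.95 in EEF1A1P12 to 4.78 in EEF1A1P6, with a median of 3.015. EEF1A1P11 had windows of 4.23 and 1.12. EEF1A1P19 had 6 windows between 1.69 and 3.99, and EEF1A1P5 had 9 between 0.74 and 3.05. The copies with 1 peak were EEF1A1P10 at 3.04, EEF1A1P16 at 2.99, EEF1A1P4 at 2.82, EEF1A1P25 at 2.43 and EEF1A1P12. Values therefore differed as much between windows of 1 copy as between copies. The RNA helicase gene EIF4A1 was not listed either, and its 3 pseudogenes had strongest values from 2.15 to 3.53. EIF4B, the cofactor of that helicase, was listed at 1.85, with EIF4BP6 at 1.84, EIF4BP3 at 2.35 and EIF4BP7 at 2.57.

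**Figure D3:**
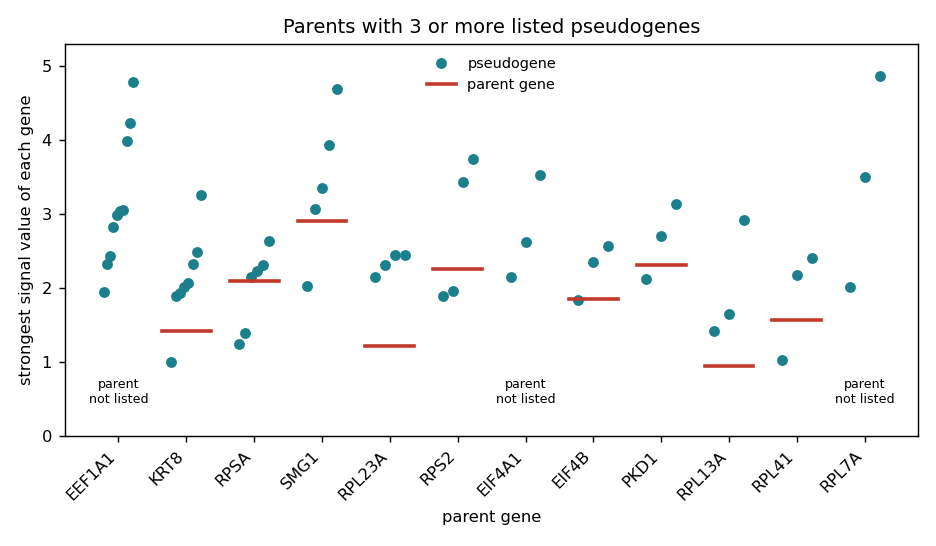
Strongest signal value (vertical axis, the authors' scale) of each pseudogene (points) of the 12 parents with 3 or more listed pseudogenes (horizontal axis), and of the parent (red line) where it was listed. All 4 copies of RPL23A and all 3 of RPL13A lie above the parent, the copies of RPSA and RPS2 lie on both sides, and EEF1A1, EIF4A1 and RPL7A have no listed peak of their own.

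Among the copies of cytoskeleton and keratin genes (13 pseudogenes, 18 peaks, median signal value 2.04), those of KRT8 were the most numerous. KRT8, an intermediate filament protein of simple epithelia such as the gastric mucosa, had windows of 1.42 and 0.89. Its 8 pseudogenes, on 7 chromosomes, had strongest values of 1.00 in KRT8P24, 1.89 in KRT8P33, 1.93 in KRT8P37, 2.01 in KRT8P12, 2.07 in KRT8P47, 2.33 in KRT8P3, 2.48 in KRT8P35 and 3.26 in KRT8P14. All but KRT8P24 were above the parent. KRT18P17 at 1.42 and KRT19P1 at 2.07 were below KRT18 at 2.25 and KRT19 at 2.21. The copies of the actin gene ACTB, at 2.56, fell on both sides, with ACTBP11 at 3.12 and ACTBP2 at 2.08, and ACTG1P10 at 2.30 had no listed parent.

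All 4 copies in the group of chromatin and nucleolar genes, set by the first letters of the symbol, were above their parents, by a median of 1.145. Their median number of tested windows was 2, against 10.5 in the parents. The histone pseudogenes HIST2H2BA at 2.82, HIST2H2BC at 2.55 and HILS1 at 4.33 fell outside this group and had no parent by symbol. PTMAP2, a copy of prothymosin alpha, was at 3.70 against 1.23. HMGB1P5 and HMGN1P38, copies of chromatin-binding high mobility group genes, were at 3.57 against 2.13 and at 3.01 against 2.16. NPM1P6, a copy of the nucleolar protein nucleophosmin, was at 3.30 against 2.45. Each of the other groups held 6 pseudogenes or fewer. The copies of zinc finger genes had 6 pseudogenes with 23 peaks between 1.45 and 3.20, led by ZNF702P and ZNF37BP (3.07). The glycolysis copies were ENO1P1 at 2.90 and LDHAP4 at 2.76, against 1.84 for LDHA. The copies of hnRNP and splicing genes (4 pseudogenes), chaperones (4) and ubiquitin and proteasome genes (3) had median signal values of 2.045, 2.60 and 2.29. A nuclear copy of the mitochondrial oxidase gene, MTCO1P12, had 4 windows from 1.67 to 2.10. The remaining 208 pseudogenes belonged to no named group and had a median signal value of 2.13.

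Duplicated copies on chromosome 16 were a further set. SMG1, the kinase that starts nonsense-mediated decay, had 9 windows up to 2.90, and its 5 unprocessed pseudogenes lie on the same chromosome. SMG1P1 was at 2.02, and SMG1P3 at 3.07, SMG1P4 at 3.35, SMG1P2 at 3.93 and SMG1P5 at 4.69 were above the parent. PKD1, which encodes polycystin 1, had 9 windows up to 2.31. Its copies PKD1P6, PKD1P1 and PKD1P5, with 17 windows in all, were at 2.12, 2.70 and 3.14. Windows listed under other genes overlapped 5 of 7 windows of PKD1P1, 3 of 7 of PKD1P5 and 2 of 3 of PKD1P6. The 2.70 of PKD1P1 and the 2.12 of PKD1P6 were such shared windows, and neither can be assigned to 1 transcript. The 3.14 of PKD1P5 was not shared. Chromosome 16 held 63 pseudogene peaks of 1540 (4.09%, interval 3.21% to 5.20%), 59 of them unprocessed. Chromosome 7 held 65 of 1235 (5.26%, interval 4.15% to 6.65%), 47 of them unprocessed, and chromosome 1 held 49 of 2549 (1.92%). The X chromosome was close to chromosome 16, with 22 of 530 (4.15%, interval 2.76% to 6.20%), but 21 of these were processed. Over all listed peaks the share was 2.21%.

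Of 12 symbols on a list of copies of interferon pathway genes, HLA-H had listed peaks and the other 11 had none. The symbols WARSP1 and WARS1P1 on it may name the same pseudogene. HLA-H, a pseudogene of the class I antigen-presenting family that IFN-γ induces, had windows of 2.11 and 2.22. HLA-DPB2, a class II pseudogene outside that list, had 1 window of 3.05. Of 30 pseudogenes whose transcripts have been studied in cancer, 5 were listed as pseudogenes, DUXAP8 was listed as a lncRNA with 3 peaks up to 2.63, and 24 were not listed. Members of both lists were sought by exact symbol. The share of all annotated pseudogenes that had a peak is unknown here, so neither count is a result about its list. RPSAP52 had 5 windows of 1.87 to 2.64. DUXAP9, a copy of the homeobox gene DUXA, had windows of 1.92 and 2.38. PDIA3P1, a copy of a protein disulfide isomerase gene, had windows of 2.27 and 2.11, against a strongest value of 2.00 in PDIA3. ANXA2P2, a copy of annexin A2, had windows of 1.48, 1.36 and 0.90 and lay below ANXA2 at 2.39.

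The relation of pseudogenes to their parents was then set out over all pairs. The symbols of 182 pseudogenes end in P and a number, and the symbol before that ending was itself listed for 121 of them, giving 85 parents, all protein-coding. The strongest value of the pseudogene was above that of the parent in 76 pairs (62.8%), below it in 44 and equal in 1, with a median difference of 0.27. The median strongest value was 2.35 for the pseudogenes and 2.16 for the parents, and the median number of windows tested was 8 and 33.5. Among listed coding genes the median strongest value did not rise steadily with the number of tested windows. It was 2.40 with 1 to 5 tested windows, the highest of the size classes, and 2.10 with 11 to 20, the lowest. The effect of the number of windows on the count of pairs was not tested. With the median of the listed windows of each gene in place of its strongest window, the pseudogene was above in 93 of 121 pairs. That median equals the strongest value in a gene with 1 listed window, as in 198 of the 314 pseudogenes, and is pulled down by weaker windows elsewhere. The count of 93 thus favours pseudogenes by construction and does not correct for the number of windows. Pairs that share a parent are not independent. Counted by parent, at the median difference over its pseudogenes, 53 of 85 were above 0 and 31 below, with a median of 0.16. The parents had a median strongest value of 2.21, close to the 2.23 of all coding genes.

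Processed and unprocessed pairs differed little in these counts. The pseudogene was above in 57 of 92 processed pairs (median difference 0.26) and in 19 of 28 unprocessed pairs (0.41), and the 1 unitary pair, PI4KAP2 at 2.29 and the lipid kinase gene PI4KA at 2.58, went the other way. By group, the pseudogene was above in 21 of 31 ribosomal, 5 of 7 translation factor, 8 of 12 cytoskeleton and keratin and 3 of 4 hnRNP and splicing pairs, and in 32 of the 58 pairs of no named group.

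The 5 pairs in which the pseudogene was farthest above the parent were all processed copies. PFN1P1 was at 4.83 and PFN1 at 1.64, a difference of 3.19. RNPS1P1 was at 4.41 and RNPS1 at 1.84, a difference of 2.57, and PTMAP2 exceeded PTMA by 2.47. Each of these 3 pseudogenes had 2 tested windows, of which 1 was listed. RPL13AP25 exceeded RPL13A by 1.97 and KRT8P14 exceeded KRT8 by 1.84. Of the 5 pairs farthest in the other direction, 4 are given and 1 is not reported here. RPLP0P6 was at 1.29 and RPLP0, which encodes a protein of the ribosomal stalk, at 4.30. RAB43P1 was at 2.06 and the small GTPase gene RAB43 at 3.98. CROCCP2 was at 2.27 and CROCC at 3.76, and BCAR1P2 at 1.00 and the adaptor protein gene BCAR1 at 2.41. The differences thus ran to about 3 signal units both ways.

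**Figure D4:**
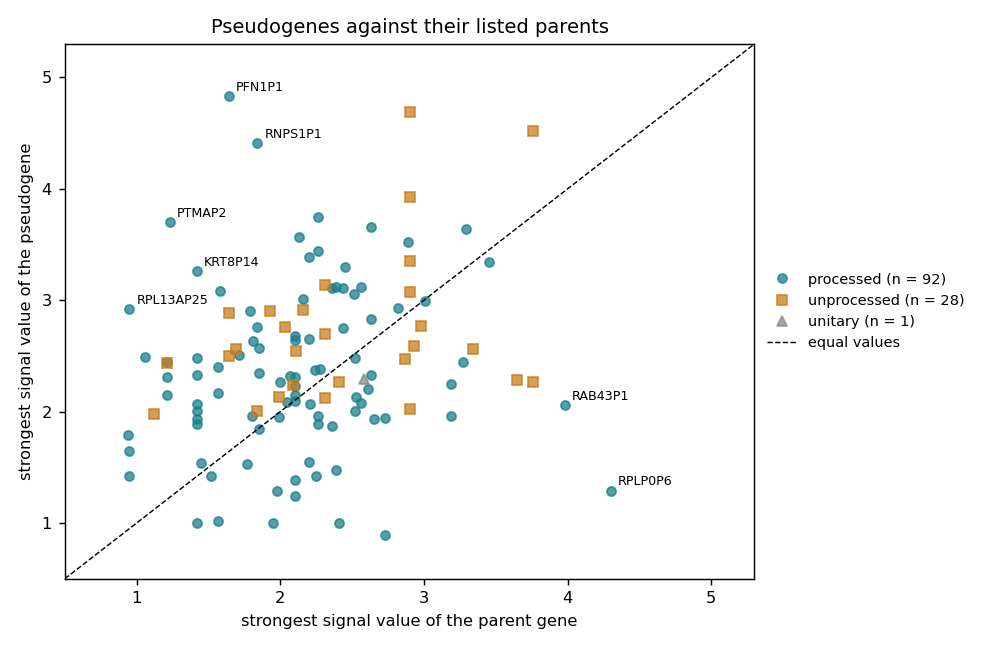
Strongest signal value of each pseudogene (vertical axis) against that of its listed parent (horizontal axis), both on the authors' scale, for 92 processed, 28 unprocessed and 1 unitary pair; the dashed line marks equal values. Of the 121 points, 76 lie above the line, and PFN1P1, RNPS1P1 and PTMAP2 lie farthest above it.

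Of the 61 pseudogenes with such a symbol and no listed parent, 58 had a parent that is a coding gene in RefSeq (40 parents, EEF1A1 and RPL7A among them). Their median strongest value was 2.42, close to the 2.35 of pseudogenes with a listed parent, and 46 of them were processed. Whether these parents were expressed or were tested for peaks is not shown by the table. The remaining pseudogenes were 81 known by clone names, with 126 peaks, and 51 with other symbols.

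Many pseudogenes lie within or beside other genes, and 123 of their windows (20.7%), in 64 pseudogenes, overlapped a window listed under another gene on the same strand by at least 1 bp, against 11.1% of all listed peaks, 10.0% of coding peaks and 25.1% of lncRNA peaks. In 46 pseudogenes every listed window was shared in this way. Such a window cannot be assigned to 1 transcript from the table. The shared windows had a median signal value of 2.13 and the others one of 2.115. The gene with the largest overlap was coding for 59 windows, a lncRNA for 49, another pseudogene for 13 and of another type for 2. Against this other window, the pseudogene's value was higher in 48 cases, lower in 69 and equal in 6, with a median overlap of 36 bp.

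The examples below of shared windows include genes chosen after their values were seen. All 3 windows of EEF1A1P6 were shared with STEAP1B, a gene of the metalloreductase family, whose windows on either side of the 4.78 peak had values of 4.25 and 4.21. All 6 windows of EEF1A1P19 were shared with C5orf34. The DHRS4L1 window of 5.15 overlapped a window of 3.74 of the lncRNA AL136419.1 by 22 bp, and both RRP7BP windows overlapped a window of 3.55 of RN7SKP80, a copy of the small nuclear RNA 7SK, by 25 bp. The NPIPP1 window of 4.44 overlapped a window of 2.88 of the lncRNA AC139256.2 by 39 bp. CROCCP4 was the pseudogene whose windows overlapped those of its own parent, CROCC. Its 4.52 peak shared 43 bp with a CROCC window of 1.83, 7 bp with a CROCC window of 3.39 and 14 bp with a window of 2.71 of RNU1-4, a U1 small nuclear RNA gene. The other CROCCP4 window, at 2.22, was below the CROCC window of 3.39, with which it shared 43 bp. KRT8P33 was lower too, at 0.91 where the centrosomal gene CEP120 had 5.05, with 37 bp in common. MTAPP2 and P3H2 had 3.64 each, with 48 bp in common.

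Windows that shared most of their bases often had unequal values. Among 31 windows with an overlap of 45 bp or more, 17 differed by 0.2 or more from the other window. The largest difference, 1.14, was between SMG1P3 at 3.07 and SLC7A5P2 at 1.93, with 47 bp in common, and this overlap is counted under both pseudogenes. Over the 31 windows the median difference, pseudogene minus other gene, was -0.1. For the strand as listed, 277 pseudogene peaks were on the plus and 316 on the minus strand, and 12 windows of 8 pseudogenes overlapped a window on the opposite strand.

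**Figure D5:**
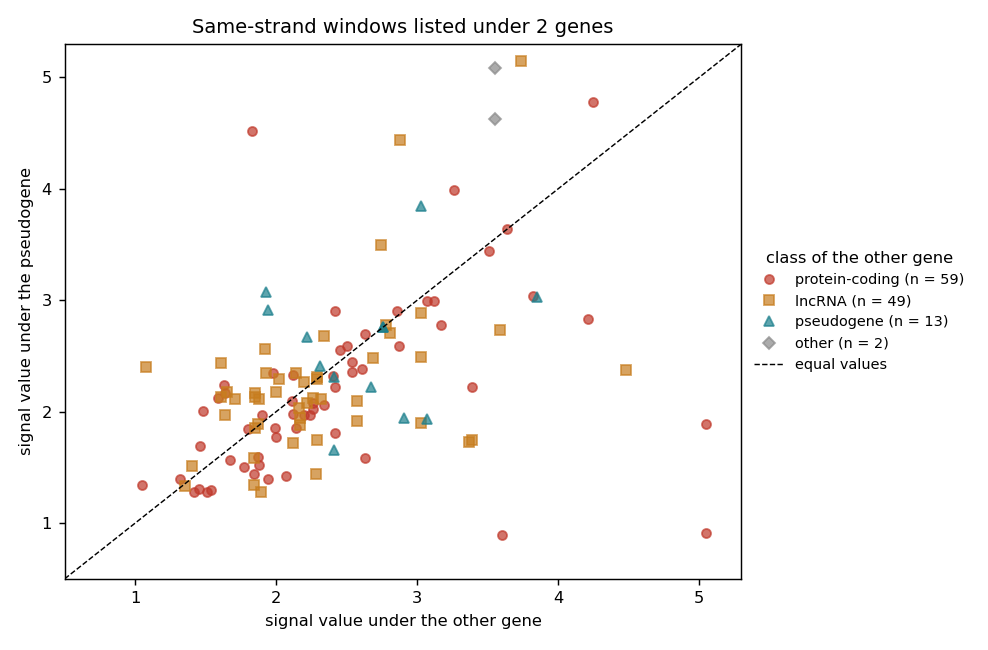
Signal value under the pseudogene (vertical axis) and under the other gene (horizontal axis), on the authors' scale, for the 123 pseudogene windows shared with another gene on the same strand; colours and shapes give the class of the other gene and the dashed line marks equal values. The pseudogene's value is higher in 48 windows and lower in 69.

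The place of the peaks along the pseudogene differed by origin. For 228 pseudogenes whose symbol matched a RefSeq gene (GRCh38.p14), 421 of 459 windows (91.7%) lay inside the RefSeq interval. In 141 processed pseudogenes, with a median length of 1414 bp, the windows fell mostly in the 5′ part, with 72, 71, 40, 26 and 9 of 218 windows in 5 successive stretches of equal length from 5′ to 3′. In 71 unprocessed pseudogenes, with a median length of 25938 bp, the counts were 61, 18, 36, 27 and 48 of 190, so that both ends held the most. The median position was 30.2% of the way along processed and 48.4% along unprocessed pseudogenes. Positions were not counted for coding or lncRNA genes, so whether this placing is particular to pseudogenes is not shown here. No genome was at hand to align each window with its homologous position in the parent, so whether a pseudogene and its parent were bound at the same place was not analysed here.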

How the data were processed

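RIP-seq libraries of SNU638 cells (2 Input and 2 IP-YTHDF1, all overexpressing YTHDF1 and treated with IFN-γ) were represented by 1 table of peaks. Groups were taken from the sample titles. The submitters' processing notes name STAR 2.7.3a and the build GRCh38, while the peak caller, the annotation version and the treatment of multi-mapped reads are not given in the sources used here. The signal value and rank are a score per peak deposited by the authors, of unstated scale. The authors also deposited a p-value and a q-value for the comparison with Input at each peak, and every q-value was at most 0.05. A total of 0 columns of values per sample were left unused. No value per library was at hand, so depth and replicate spread are unknown and IP-YTHDF1 was not tested against Input.

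Of 26820 rows, 1 repeat was dropped. Starts, counted from 0, were converted to positions counted from 1. Genes were counted by identifier. Tested windows per gene were computed as the largest q-value times p-value order over p-value (p-value above 1e-14), as in an adjustment within each gene. For genes at the limit of 9 listed windows this number can be too low. Parents were matched by symbol, without the final P and number. Wilson 95% intervals were used for shares, and windows were called shared at 1 bp of overlap on the same strand. Symbols were matched to RefSeq GRCh38.p14 for gene intervals, coding parents and promoter sequences.

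The genes named were the 10 strongest pseudogene peaks, pseudogenes with 9 listed windows, the 5 pairs with the largest difference from the parent in each direction, parents with 3 or more listed pseudogenes, and the listed members of the pathway, cancer and interferon lists, with further genes chosen after their values were seen. Some items that the rule names are not reported here. The members and lists were chosen with earlier results of these data known. The alternatives were other q-value and signal limits, joined windows, shared windows left out, counts per gene, main chromosomes alone, a wider parent rule and pairs without genes at 9 windows. Scripts were tested on simulated data. They used matplotlib 3.10.9, SciPy 1.17.1, NumPy 2.4.6 and pandas 2.3.3 in Python 3.11.15.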

Additional observations from a re-analysis of the deposited data

How the results depend on the processing

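The share of peaks in pseudogenes (2.21%) was 4.16% counted per gene, 3.58% at a signal value of at least 2, 2.50% over joined windows and 1.97% without windows shared with another gene. It was 2.38% at a q-value of at most 0.001 and 2.21% on the main chromosomes. The median signal value (2.12) was 2.49 at a q-value of at most 0.001 and 2.115 without shared windows. It was 2.41 at the strongest peak of each pseudogene and 2.23 over joined windows, both of which keep the strongest window by construction. At a q-value of at most 0.001 for both genes, 63 pseudogenes had a listed parent in place of 121, because fewer genes were kept. The pseudogene was above its parent in 44 of these 63 pairs (69.8%, against 62.8% of the 121), with a median difference of 0.47 against 0.27. It was above in 67 of 104 pairs without genes at 9 windows and in 64 of 98 without shared windows. The wider parent rule gave 122 pseudogenes with a listed parent. The cause of the other shifts was not tested.

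No paired analysis was possible because each peak carries 1 value for all libraries together. For the same reason the planned tests of IP-YTHDF1 against Input, their alternatives and leaving out each replicate were not run. The planned share of GGAC in all pseudogene windows, and in widened windows, was not run because no genome was at hand. Unknown depth limits what can be said of pseudogenes and parents with no listed peak.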
